A study of Mus musculus with 8 samples.

Results

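The 41 genes described here are interferon-stimulated genes, chosen by their mouse gene symbols, and their open chromatin was read from ATAC-seq summits in 8 libraries of splenic dendritic cells. A summit is the point of highest signal in a called peak of accessible chromatin. In each library the 61737 best-scored summits were kept, and each went to the closest protein-coding gene, out of 21887, if one lay within 50 kb. Of the 41 genes, 39 are among those protein-coding genes. Mx1 and Mx2 are listed as transcribed pseudogenes on this genome build, so the rule gave them no summit. At least 1 summit in all 8 libraries was given to 29 members, and 32 passed the filter for testing, an average of 1 summit or more per library. The members took between 113 and 130 summits per library.

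Conventional dendritic cells of type 1 (cDC1) and type 2 (cDC2) were sorted from mouse spleen as lineage-negative CD11c+ MHCII+ CD64- cells, cDC1 being XCR1+ CD11b- and cDC2 XCR1- CD11b+. The genotype labels are HDAC1 floxed (WT below) and HDAC1 floxed with Mx1-Cre (KO below), and each combination of subset and genotype has 2 libraries. Mice of both genotypes had received poly I:C 2 weeks before the sort, so no library shows these genes without that treatment. Mx1-Cre is a Cre recombinase under an interferon-responsive promoter, and its action is not confined to dendritic cells. The labels do not say that the libraries of a group came from separate animals, so the p-values below cover the spread among these libraries alone, which may be technical.

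Type I interferon binds the receptor formed by IFNAR1 and IFNAR2, and the kinases on that receptor phosphorylate STAT2. With IRF9 it is part of the complex ISGF3, which binds the interferon-stimulated response element (ISRE) in the promoters of its target genes. Genes that respond to interferon gamma can carry another element, the gamma-activated site (GAS). The products of the target genes sense viral RNA, degrade it, block translation or entry, and tag proteins with the ubiquitin-like modifier ISG15. Poly I:C is a synthetic double-stranded RNA that induces interferon.

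Promoter sequences were searched for both elements, because they mark genes that respond to interferon. The windows ran from 250 bases before to 50 bases after each start in RefSeq (build GRCm38.p6), and 34 members matched a start, some of them more than 1. The ISRE core was taken as GAAA, any 2 bases and GAAA again, on either strand, and the GAS core as TTCNNNGAA, which reads the same on both strands. Of the 34 members, 17 held an ISRE core (50%), against 3.94% of 17492 genes. A GAS core was present in 13 members (38.2%), against 8.92% of all genes. The elements can overlap, as they do in Bst2. A match is a description of letters and not a measured binding site. The sequences below lie directly upstream of the start, run 5′ to 3′ on the gene's strand, and carry the ISRE cores in capitals. Stat2 (chr10:128270266-128270497, plus strand), Trim30a (chr7:104465194-104465343, minus strand), Gbp7 (chr3:142530186-142530335, plus strand) and Bst2 (chr8:71537473-71537622, minus strand) are shown by a rule on summits and letters. It took members with a core in a window and, at 1 of their starts, a summit within 250 bp in all 8 libraries, and then the best 6 by median rank of the start summit. Ifih1 and Eif2ak2 were the other two, and only their cores are given below. Gbp3 has upstream cores but was not eligible, since its start summits lay up to 317 bp away. For Trim30a the start that met the rule is at 104446125. The window shown belongs to the start at 104465193, where the summit of KO cDC2 replicate 1 lay 432 bp away.
Stat2: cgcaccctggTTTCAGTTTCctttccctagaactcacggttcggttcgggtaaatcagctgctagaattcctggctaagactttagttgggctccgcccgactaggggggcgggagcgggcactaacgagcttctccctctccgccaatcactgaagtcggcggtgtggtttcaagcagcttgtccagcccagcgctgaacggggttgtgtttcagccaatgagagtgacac
Trim30a: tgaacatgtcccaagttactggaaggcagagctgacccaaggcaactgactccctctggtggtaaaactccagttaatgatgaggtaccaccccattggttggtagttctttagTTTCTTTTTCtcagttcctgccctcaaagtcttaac
Gbp7: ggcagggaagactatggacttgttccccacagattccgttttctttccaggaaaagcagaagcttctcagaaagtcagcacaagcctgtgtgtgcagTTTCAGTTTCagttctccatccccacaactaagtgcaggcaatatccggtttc
Bst2: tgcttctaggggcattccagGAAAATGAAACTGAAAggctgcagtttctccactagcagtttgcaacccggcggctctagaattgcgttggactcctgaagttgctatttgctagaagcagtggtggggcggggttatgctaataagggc

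Gbp2 (chr3:142620513-142620662, plus strand) and Oas1a (chr5:120907526-120907675, minus strand) are shown because both had more summits in cDC2, as described below. Isg15 (chr4:156200819-156200968, minus strand) and Ifit1 (chr19:34640739-34640888, plus strand) were chosen after their values were seen, because each carries several cores and was given no summit.
Gbp2: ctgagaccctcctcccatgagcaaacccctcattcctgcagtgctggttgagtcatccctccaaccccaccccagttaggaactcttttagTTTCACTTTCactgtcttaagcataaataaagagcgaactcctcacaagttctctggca
Oas1a: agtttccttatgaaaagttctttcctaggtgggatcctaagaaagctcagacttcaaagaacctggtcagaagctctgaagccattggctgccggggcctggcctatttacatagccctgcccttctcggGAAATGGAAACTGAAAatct
Isg15: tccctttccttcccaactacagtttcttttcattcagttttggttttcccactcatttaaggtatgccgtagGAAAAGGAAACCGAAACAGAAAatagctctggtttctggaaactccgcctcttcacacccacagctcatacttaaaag
Ifit1: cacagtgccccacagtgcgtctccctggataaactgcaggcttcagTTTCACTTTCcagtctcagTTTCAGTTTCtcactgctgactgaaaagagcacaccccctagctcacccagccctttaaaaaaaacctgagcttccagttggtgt
In Bst2, Oas1a and Isg15 the capitals are one run, because successive cores overlap. Isg15 holds 3 cores in that run, and Bst2 and Oas1a hold 2 each. In Ifit1 the 2 cores are separate and lie on the minus strand, so they read as TTTC repeats. The core of Eif2ak2 lay downstream of the start at base 19, GAAAACGAAA, and that of Ifih1 at base 33, GAAACAGAAA.

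The sort could be checked at genes outside the members. Xcr1, the receptor used in the sort, was given no summit in any library, and Cd8a, carried by splenic cDC1, had 5 to 7 summits in cDC1 and 0 to 1 in cDC2. Summed over 9 cDC1 markers the libraries held 79 to 83 summits in cDC1 and 53 to 58 in cDC2, and over 9 cDC2 markers 48 to 54 and 66 to 69. By limma 3 of the 8 tested cDC1 markers fell in cDC2 (Cd8a, Cadm1 and Irf8) and 0 rose, and 2 of the 9 tested cDC2 markers rose (Clec4a4 and Dtx1) and 0 fell. Those that did not pass include the cDC1 marker Clec9a, with means of 1 and 1.5 summits in WT and KO cDC1 and 2 in cDC2 of either genotype, and Itgam, which encodes the CD11b of the sort (log2 difference -0.08, limma adjusted p = 0.897). Markers of plasmacytoid dendritic cells, which are strong interferon producers, summed to 33 to 38 in cDC1 and 35 to 40 in cDC2, and 2 of the 7 tested fell in cDC2 (Pacsin1 and Cox6a2). Klk1 of that list was at 0 in every library. Of the markers of monocytes and macrophages 1 of 7 tested fell (Vcam1), of B cells 1 of 3 (Ebf1), and of T cells and NK cells 0 of 4 and 0 of 3. The part of such cells in the results below was not tested. At Hdac1 the WT libraries held 1 or 2 summits and every KO library 1, which does not test the loss of exons. The deposited lists held 74963 to 96031 summits in cDC1 and 61737 to 78296 in cDC2. At the cut to equal length the score was 4.534 to 7.207 in cDC1 and 1.309 to 4.923 in cDC2. Lower-scored summits were therefore kept in most cDC2 libraries. The score rises with depth, so these need not be weaker sites. The lists give no read counts, so the depth is unknown. A gene at 0 received no called peak, and closed chromatin cannot be read from that.

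**Figure D1:**
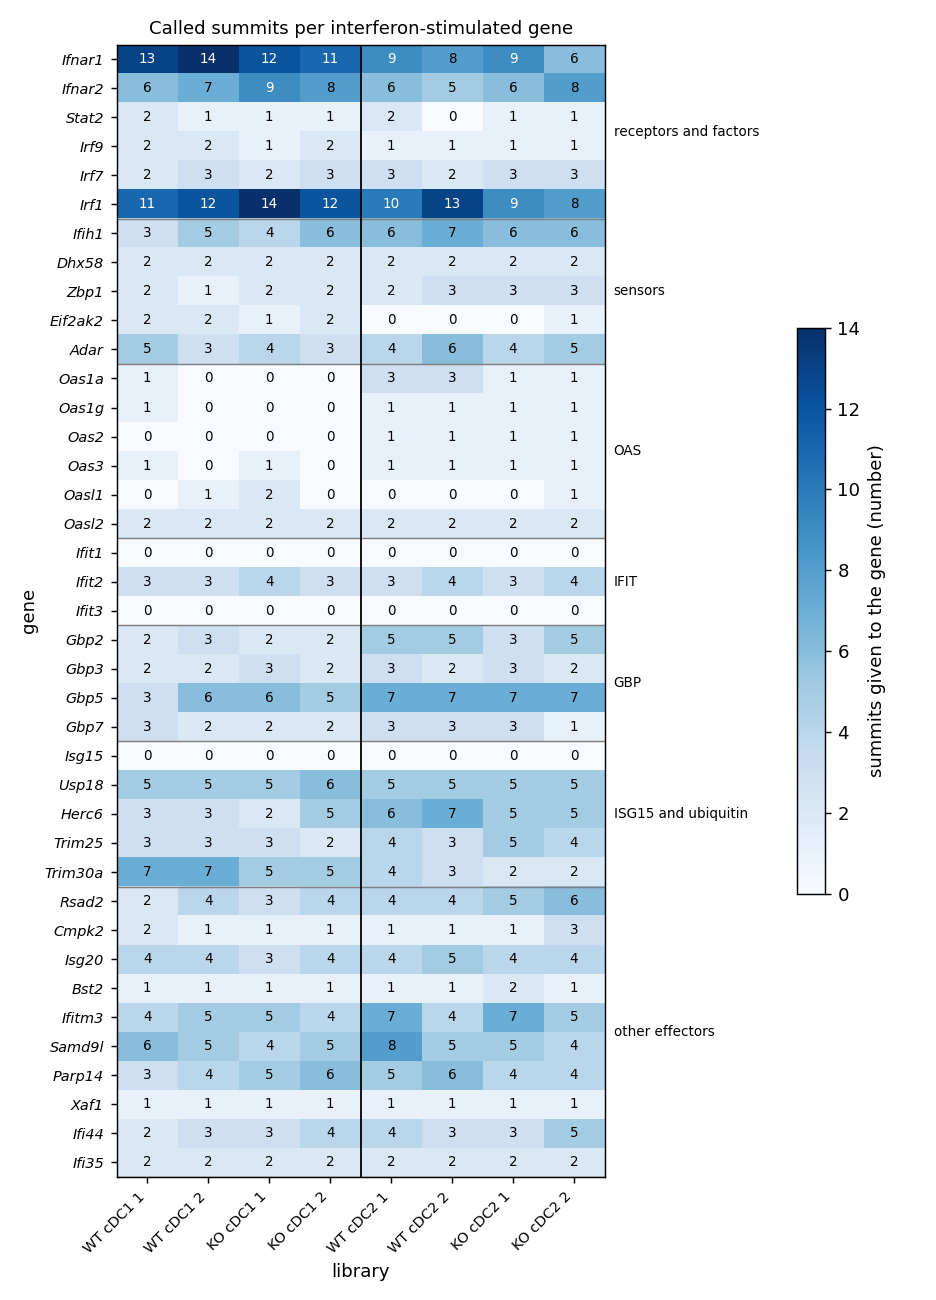
Summits given to each protein-coding member (rows, by role) in each of the 8 libraries (columns), with the number in each cell and in the colour scale. Irf1 and Ifnar1 have the most, Ifit1, Ifit3 and Isg15 have 0 in every library, and Oas2 has 0 in the 4 cDC1 libraries and 1 in the 4 cDC2 libraries.

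The first comparison asks whether these genes are marked by open chromatin to the same extent in cDC1 and cDC2. Oas1a, Gbp2 and Herc6 had more summits in cDC2, and Eif2ak2, Trim30a and Ifnar1 had fewer. These 6 of the 32 tested members (18.8%) passed limma on log2(summits + 1) with Benjamini-Hochberg adjustment over all 14068 genes tested, where 10.4% of all genes passed. Of the members 3 were higher and 3 lower, against 4.70% and 5.66% of all genes. The median log2 difference, cDC2 minus cDC1, was 0.10 over the tested members and 0 over all tested genes. At an unadjusted p under 0.05 there were 12 of 32 members and 3452 of 14068 genes. Oas1a and Eif2ak2 passed the filter on the mean only through the subset in which they were higher, so these shares describe the tested members and support nothing. Without the filter 4 of 36 members passed, namely Oas1a, Oas2, Eif2ak2 and Trim30a, against 5.28% of all genes.

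**Figure D2:**
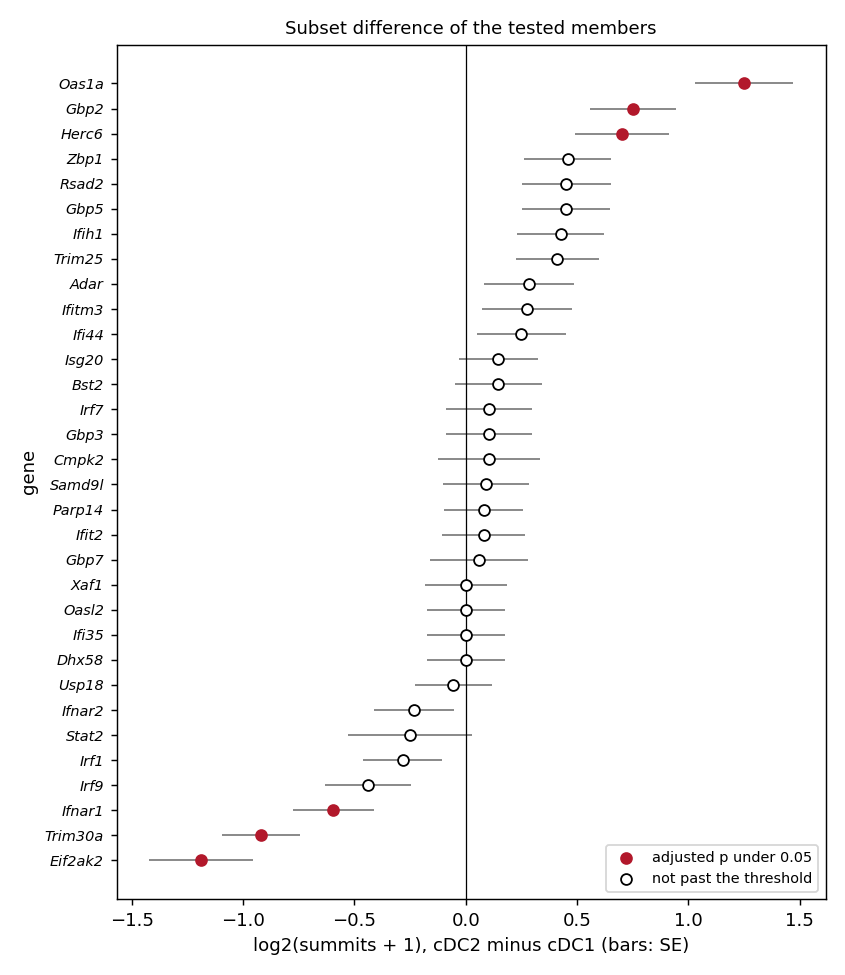
Log2 difference in summits plus 1 between cDC2 and cDC1 for the 32 tested members, with bars of 1 standard error. Filled points passed the adjusted threshold of 0.05, from Oas1a at 1.25 to Eif2ak2 at -1.19, and the other 26 did not.

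Among the receptor genes, Ifnar1 (chromosome 16, 91485032 to 91510523), which encodes the receptor chain needed for the signal of all type I interferons, had 13 and 14 summits in the WT libraries of cDC1 and 12 and 11 in the KO libraries. In cDC2 the WT libraries had 9 and 8 and the KO libraries 9 and 6. Every cDC1 library was above every cDC2 library. The means were 12.5 ± 1.29 and 8 ± 1.41 (SD, n = 4), a log2 difference of -0.60 (SE 0.182, limma adjusted p = 0.0483). With a distance limit of 10 kb the difference was -0.29 (limma adjusted p = 0.404), and the call was lost in 16 of 20 alternatives, among them leaving out either WT cDC1 library (-0.62 and -0.57), either KO cDC1 library (-0.57 and -0.62), WT cDC2 replicate 2 (-0.56) or KO cDC2 replicate 2 (-0.47). Ifnar2 (chromosome 16, 91372783 to 91405589), the other chain, had 6, 7, 9 and 8 summits in cDC1 and 6, 5, 6 and 8 in cDC2, with WT before KO. These ranges overlapped, and the log2 difference of -0.23 did not pass (limma adjusted p = 0.503).

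Irf1 (chromosome 11, 53770014 to 53778374), a transcription factor of the interferon response, held the most summits of any member, 89 over the libraries. WT and KO cDC1 had 11, 12, 14 and 12, and WT and KO cDC2 had 10, 13, 9 and 8. The subsets overlapped through WT cDC2 replicate 2, and the difference of -0.28 did not pass (limma adjusted p = 0.375). Irf9, the DNA-binding partner of STAT2, had 1 or 2 summits in cDC1 and 1 in every cDC2 library (-0.44, limma adjusted p = 0.169). Irf7, the factor that amplifies interferon production, had 2 or 3 in every library. Stat2 had 1 or 2 in 7 libraries and 0 in WT cDC2 replicate 2. Summed over these 6 genes, the cDC1 libraries held 36 to 39 summits and the cDC2 libraries 27 to 31. Ifnar1 was the 1 gene of the 6 that passed, and it makes up a large part of that gap.

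Of the 5 members grouped as RNA and nucleic acid sensors 1 passed, and it was lower in cDC2. Eif2ak2 (chromosome 17, 78850504 to 78882572) encodes PKR, the kinase that stops translation when it binds double-stranded RNA. In cDC1 the WT libraries had 2 and 2 summits and the KO libraries 1 and 2. In cDC2 the WT libraries had 0 and 0 and the KO libraries 0 and 1. The subsets met at 1 summit, in KO cDC1 replicate 1 and KO cDC2 replicate 2. The log2 difference was -1.19 (SE 0.234, limma adjusted p = 0.00434), and it did not pass with the gene span extended by 5 kb on both sides (-0.43, limma adjusted p = 0.204), in the KO libraries alone (-0.79, limma adjusted p = 0.103) or without the rounding variance (-1.19, limma adjusted p = 0.0766). The start of Eif2ak2 had a summit in all 8 libraries, but the nearest-gene rule gave 7 summits there to Gm26637, a gene model that overlaps the start. The start summit was given to Eif2ak2 itself in WT cDC1 replicate 2 and in KO cDC2 replicate 2, and in the latter it was the only summit counted. The subset difference therefore rests on summits inside the gene, chiefly a site 12092 bp from the start that was found in all 4 cDC1 libraries and in no cDC2 library. The gene passed the filter on the mean only through its cDC1 summits, and it was tested in 15 of 20 alternatives. Leaving out either WT cDC1 library or KO cDC1 replicate 2 put it below that filter. The difference thus has no value without a library in which it was highest.

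Ifih1, which encodes the long double-stranded RNA sensor MDA5, had 3, 5, 4 and 6 summits in cDC1 and 6, 7, 6 and 6 in cDC2 (0.43, limma adjusted p = 0.191). Zbp1, a sensor of Z-form nucleic acid, had 2, 1, 2 and 2 in cDC1 and 2, 3, 3 and 3 in cDC2 (0.46, limma adjusted p = 0.166). In both the subsets shared a value, and neither passed. Dhx58, which encodes the MDA5 regulator LGP2, had 2 summits in every library. Adar, which encodes the enzyme that edits adenosines in double-stranded RNA, had 3 to 5 in cDC1 and 4 to 6 in cDC2. Ifih1 and Dhx58 passed only among the better-scored 50% of each list, as did Rsad2, where Oas1a and Eif2ak2 fell below the filter on the mean and Herc6 and Ifnar1 did not pass.

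The oligoadenylate synthetases make the second messenger that activates RNase L, which degrades RNA. Oas1a (chromosome 5, 120896256 to 120907544) had 1 and 0 summits in the WT libraries of cDC1 and 0 in both KO libraries. In cDC2 both WT libraries had 3 and both KO libraries 1. WT cDC2 stood above every other library, and WT cDC1 replicate 1 reached the level of KO cDC2. The means were 0.25 ± 0.5 and 2 ± 1.16 (SD, n = 4), a log2 difference of 1.25 (SE 0.221, limma adjusted p = 0.00204). It passed the filter on the mean only through its cDC2 summits, and in 4 of 20 alternatives it fell below that filter and was not tested. These were the better-scored 50% of each list, the KO libraries alone, and leaving out either WT cDC2 library, so the difference has no value without a library in which it was highest. It passed in the other 16. Its 3 sites lay within 1427 bp of the gene or inside it, and at the start a summit was present in 4 of 4 cDC2 libraries and in 1 cDC1 library. The best start summit ranked at 51.7% and 87.3% of the list in the WT libraries of cDC2. It ranked at 80.1% and 65.7% in the KO libraries of cDC2 and at 98.4% in WT cDC1 replicate 1. These summits thus lay in the weaker part of the lists.

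Oas2 (chromosome 5, 120730333 to 120749886) had 1 summit in each cDC2 library and 0 in each cDC1 library. That summit lay at the upper end of the gene, and it ranked at 35.9% and 52.1% of the list in the WT libraries of cDC2 and at 36.3% and 61.4% in the KO libraries. With a mean below 1 it was not tested, and without the filter on low genes it passed. Oas1g and Oas3 had 1 summit in every cDC2 library, and in cDC1 Oas1g had it in WT replicate 1 alone and Oas3 in replicate 1 of each genotype. Oasl2 had 2 summits in every library. Oasl1 had 1 in WT cDC1 replicate 2, 2 in KO cDC1 replicate 1 and 1 in KO cDC2 replicate 2, and 0 elsewhere. Over the 6 genes the cDC1 libraries held 5, 3, 5 and 2 summits and the cDC2 libraries 8, 8, 6 and 7. Oas1a makes up the largest part of that gap, and of the 2 genes that could be tested it was the 1 that passed. Oas1a and Oas1g share 24.6% of the 25-base words of their promoter windows, so reads at their starts may be hard to place.

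Guanylate-binding proteins are interferon-induced GTPases that attack the vacuoles of intracellular pathogens, and the 4 members lie close together on chromosome 3. Gbp2 (142620663 to 142638008) had 2 and 3 summits in the WT libraries of cDC1 and 2 in both KO libraries. In cDC2 both WT libraries had 5 and the KO libraries 3 and 5. The subsets met at 3 summits, in WT cDC1 replicate 2 and KO cDC2 replicate 1. The means were 2.25 ± 0.5 and 4.5 ± 1 (SD, n = 4), a log2 difference of 0.75 (SE 0.193, limma adjusted p = 0.0231). The call was lost in 7 of 20 alternatives, among them no filter on low genes (0.75, limma adjusted p = 0.0622), without WT cDC1 replicate 1 (0.65, limma adjusted p = 0.0574), without KO cDC2 replicate 2 (0.60, limma adjusted p = 0.0862) and with all deposited summits (0.46, limma adjusted p = 0.204). A site inside Gbp2 (chromosome 3, 142630555 to 142630693), 9984 bp from the start, had a summit in all 4 cDC2 libraries and in no cDC1 library.

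Gbp5 (chromosome 3, 142496934 to 142522344) had 3, 6, 6 and 5 summits in cDC1 and 7 in every cDC2 library. Every cDC2 library was above every cDC1 library, and the difference of 0.45 did not pass (SE 0.199, limma adjusted p = 0.171). It passed without WT cDC1 replicate 2. Gbp3 had 2 or 3 summits in every library and Gbp7 1 to 3. Over the 4 genes the cDC1 libraries held 10 to 13 summits and the cDC2 libraries 15 to 18. Gbp5 was the 1 member of 32 with more summits in every cDC2 library than in any cDC1 library, an order shown by 4.75% of all tested genes. The reverse order was shown by 2 of 32, Ifnar1 and Trim30a, against 5.79%.

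Trim30a (chromosome 7, 104409025 to 104465193), which encodes a tripartite-motif protein that restrains toll-like receptor signalling, had 7 summits in both WT libraries of cDC1 and 5 in both KO libraries. In cDC2 the WT libraries had 4 and 3 and both KO libraries 2. Every cDC1 library was above every cDC2 library. The means were 6 ± 1.16 and 2.75 ± 0.957 (SD, n = 4), a log2 difference of -0.92 (SE 0.174, limma adjusted p = 0.00359). In the WT libraries alone it was -0.84 (limma adjusted p = 0.0993), and with all deposited summits scaled to equal list length -0.51 (limma adjusted p = 0.0945). A site 524 bp beyond the end of the gene (chromosome 7, 104408461 to 104408533) had a summit in all 4 cDC1 libraries and in no cDC2 library. Its promoter window shares 45.3% of its 25-base words with that of the neighbouring Trim30d, so reads there may be hard to place.

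Herc6 (chromosome 6, 57580992 to 57665136), which encodes the ligase that attaches ISG15 to proteins in mouse, had 3, 3, 2 and 5 summits in cDC1 and 6, 7, 5 and 5 in cDC2, with WT before KO. The subsets met at 5 summits in KO. The means were 3.25 ± 1.26 and 5.75 ± 0.957 (SD, n = 4), a log2 difference of 0.70 (SE 0.212, limma adjusted p = 0.0464). Among the better-scored 50% of each list the difference was 0 (limma adjusted p = 1), and the call was lost in 13 of 20 alternatives, among them leaving out KO cDC1 replicate 1 (0.45), KO cDC2 replicate 1 (0.70) or KO cDC2 replicate 2 (0.70). Usp18, which encodes the protease that removes ISG15, had 5 summits in every library but KO cDC1 replicate 2, which had 6. Trim25, the ubiquitin ligase that activates the sensor RIG-I, had 2 or 3 in cDC1 and 3 to 5 in cDC2 (0.41, limma adjusted p = 0.183).

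None of the 10 tested members grouped as other effectors passed. Rsad2, which encodes viperin, had 2, 4, 3 and 4 summits in cDC1 and 4, 4, 5 and 6 in cDC2 (0.45, limma adjusted p = 0.172). Its neighbour Cmpk2, a nucleotide kinase, had 1 or 2 summits in 7 libraries and 3 in KO cDC2 replicate 2. Ifitm3, which blocks the entry of viruses, had 4 or 5 in cDC1 and 4 to 7 in cDC2. Samd9l had 4 to 6 in cDC1 and 4 to 8 in cDC2, and Isg20, an RNA exonuclease, 3 to 5 in every library. Bst2, which encodes the virus-retaining protein tetherin, had 1 summit in 7 libraries and 2 in KO cDC2 replicate 1. Ifi44 ranged from 2 to 5 and Parp14, an ADP-ribosyltransferase, from 3 to 6. Ifi35 had 2 and Xaf1 1 in every library.

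Other genes of the pathway were counted from lists of genes known for their roles in it. Of 16 tested receptors, kinases, STATs, IRFs and inhibitors outside the members, 0 were higher in cDC2 and 1 was lower, against 4.70% and 5.66% of all tested genes. That gene was Stat3, with 7 to 9 summits in cDC1 and 4 to 6 in cDC2 (-0.59, limma adjusted p = 0.0464). Of 43 other tested interferon-stimulated genes, 0 were higher and 4 were lower in cDC2, namely Epsti1 (-0.84), Gbp4 (-0.84), Trim12c (-0.73) and Mov10 (-0.66), against the same shares of all genes. Gbp4, another guanylate-binding protein gene, had 6, 4, 3 and 5 summits in cDC1 and 2 in every cDC2 library. Its direction is opposite to that of Gbp2. The median difference over those 43 genes was 0.

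Sites were then compared one by one, a site being a chain of summits, from whichever library, with gaps of at most 250 bp. The members held 203 sites at 36 genes. Of these 68 (33.5%) had a summit in all 8 libraries, against 26.4% of all 112443 sites, and 45 (22.2%) were found in 1 library, against 24.3%. In every cDC1 and no cDC2 library there were 3 member sites (1.48%), against 4.33% of all sites. Beside the Trim30a site they were a site inside Eif2ak2 (chromosome 17, 78870462 to 78870538) and one 30726 bp from Irf1 (chromosome 11, 53809057 to 53809128). In every cDC2 and no cDC1 library there were 6 (2.96%), against 2.42% of all sites.

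These 6 sites lay at 6 different genes. Beside the site inside Gbp2, one lay inside Gbp5 (chromosome 3, 142497288 to 142497487), 446 bp from its start. The one at Oas2 (chromosome 5, 120749837 to 120749967) covered the upper end of the gene. Those at Herc6 (chromosome 6, 57570515 to 57570654), Samd9l (chromosome 6, 3343703 to 3343807) and Trim25 (chromosome 11, 89021040 to 89021215) lay 10346, 28502 and 798 bp outside their genes. No member site was found in every KO and no WT library, or the reverse, against 0.0836% and 0.0694% of all sites.

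The starts of the members were open in most cases. A summit within 500 bp of a RefSeq start was present in all 8 libraries at 26 of 34 members (76.5%), against 47.1% of 17492 genes. No library had one at Oas1g, Oas3, Ifit3 and Isg15, which is 11.8% of the members against 41.0% of all genes. Oas1a, Oasl1, Oasl2 and Ifitm3 had one in 1 to 5 libraries. Of the 17 members with an ISRE core, 11 had a start summit in all 8 libraries and 4 had none. Of the 17 without a core, 15 had it in all 8 and 0 had none. The 4 members without a start summit thus all carry a core, among them Isg15 with its 3 overlapping cores.

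The nearest-gene count missed some of these starts. Ifit1, which encodes a protein that binds viral RNA lacking a methylated cap, was given 0 summits in every library, yet its start had a summit in all 8. The rule gave 5 of these to Ifit1bl1 and 3 to Ifit1bl2, and the promoter window of Ifit1 shares 80.1% of its 25-base words with that of Ifit1bl2. The start summits of Stat2 were all given to Apof. For Ifit3, a partner of IFIT1, and Isg15 neither count found a summit. Ifit3 shares 62% of its window's words with Ifit3b, which was also at 0 in all 8 libraries. Whether reads that map to several places were dropped is not given in the sources used here.

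**Figure D3:**
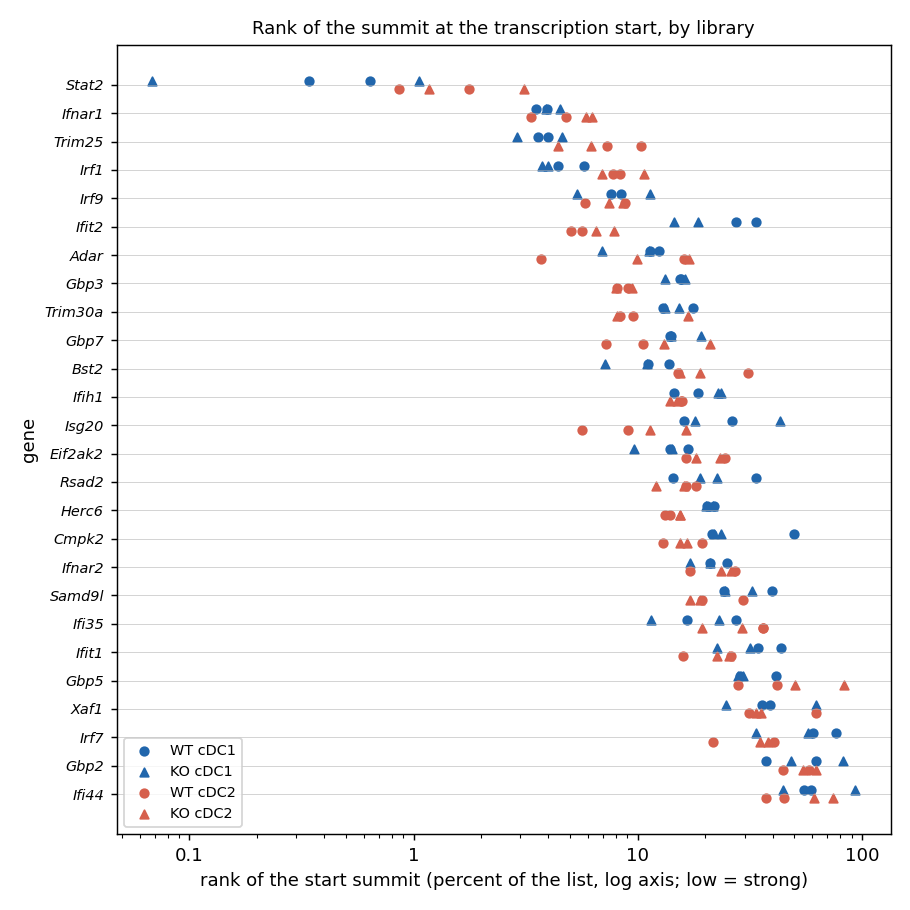
Rank of the strongest start summit, as a percent of the 61737 kept summits (log axis, low is strong), for the 26 members with a start summit in all 8 libraries. Each point is 1 library. Stat2 ranks best, between 0.068% and 3.11%, and the cDC2 points of Ifit2 lie apart from and below its cDC1 points.

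Ranks of the start summits gave a measure apart from the counts, with 0% the strongest summit of a library. They are given as values with no test. In cDC1 the start of Stat2 ranked at 0.641% and 0.343% in the WT libraries and 1.06% and 0.068% in the KO libraries. In cDC2 it ranked at 0.86% and 1.76% in the WT libraries and 3.11% and 1.17% in the KO libraries. It was the best-ranked start among the members, and the groups overlapped. Ifnar1 followed with 3.34% to 6.24%, overlapping between subsets, and Trim25 with 2.89% to 10.3%. The fewer summits of Ifnar1 in cDC2 were thus not at its start, where every library had one.

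All cDC2 libraries ranked above all cDC1 libraries at 4 of the 26 starts (15.4%), against 7.12% of 8231 genes with a start summit in all libraries. Ifit2, an antiviral gene with 3 or 4 summits in every library, had start ranks in cDC1 of 27.5% and 33.9% in the WT libraries and 18.5% and 14.6% in the KO libraries. In cDC2 these were 5.65% and 5.06% in the WT libraries and 6.51% and 7.84% in the KO libraries. All 4 cDC2 libraries were clear of the cDC1 libraries. Gbp3 ranked at 13.2% to 16.3% in cDC1 and 7.99% to 9.47% in cDC2, and Herc6 at 20.2% to 22% and 13.3% to 15.5%. Cmpk2 ranked at 21.5% to 49.6% in cDC1 and 13% to 19.3% in cDC2.

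The reverse order was seen at 2 of 26 (7.69%), against 14.5% of genes. The start of Irf1 ranked at 3.73% to 5.74% in cDC1 and 6.9% to 10.7% in cDC2, and that of Bst2 at 7.13% to 13.8% and 15.2% to 31.2%. Trim30a and Gbp2, whose counts differed, overlapped in rank at their starts. Gbp2 ranked at 37.4% to 82.3% in cDC1 and 44.7% to 62.2% in cDC2, and Trim30a at 13% to 17.7% and 8.07% to 16.7%. At none of the 26 starts did all KO libraries rank above all WT libraries, or the reverse, against 2.71% and 0.462% of genes.

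The second comparison asks whether the accessibility of these genes differed between KO and WT in either subset. KO differs from WT by the Mx1-Cre transgene as well as by deletion of Hdac1, and these cannot be told apart here. In cDC1 0 of 32 members passed limma, against 0.0498% of the 14068 genes. An unadjusted p under 0.05 was found there for 0 members and 742 genes. In cDC2 0 of 32 passed, against 0.0782% of the genes, and 2 members and 793 genes had an unadjusted p under 0.05. The test of whether the effect differed between the subsets called 0 members and 0% of all genes, with 1 member and 537 genes at an unadjusted p under 0.05. In the 53 alternatives of these contrasts no member was called either, which includes limma without the rounding variance. The median difference over the members was 0 in both subsets. No member had more summits in every KO library than in any WT library, or the reverse, against 0.348% and 0.284% of all tested genes. A p that misses the threshold does not show equal accessibility, and the standard errors of the members' differences within a subset lay between 0.24 and 0.40 on the log2 scale.

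**Figure D4:**
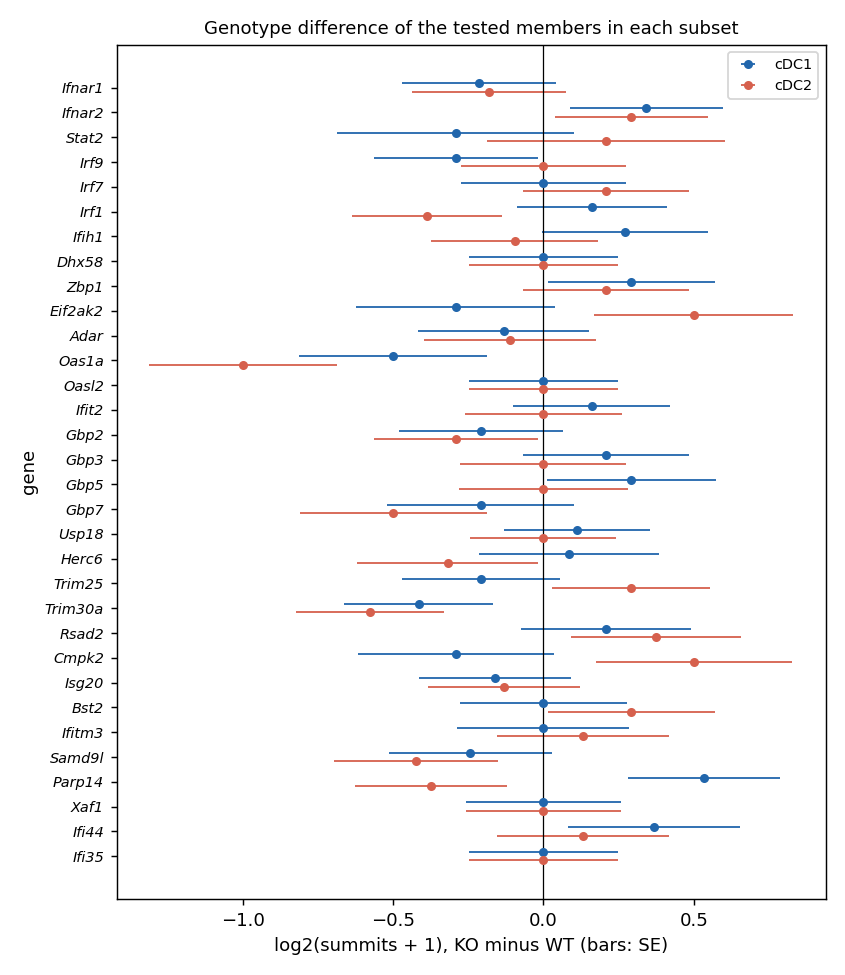
Log2 difference in summits plus 1 between KO and WT for the 32 tested members in cDC1 and in cDC2, with bars of 1 standard error. No point passed the adjusted threshold. Oas1a in cDC2 lies farthest from 0, at -1, and passed the filter on the mean only through WT cDC2.

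The largest genotype difference was at Oas1a in cDC2, with 3 and 3 summits in WT and 1 and 1 in KO. These libraries did not overlap, and the log2 difference of -1 had an SE of 0.312 and a limma adjusted p of 0.682. Oas1a passed the filter on the mean only through WT cDC2, the higher group of this contrast. The size of this difference therefore supports nothing. In cDC1 Oas1a had 1 and 0 in WT and 0 and 0 in KO (-0.50, limma adjusted p = 1). Trim30a had 7 and 7 in WT and 5 and 5 in KO in cDC1 (-0.41, SE 0.247), and 4 and 3 against 2 and 2 in cDC2 (-0.58, SE 0.247). It was lower in both KO libraries of each subset, and neither difference passed (limma adjusted p = 1 and 0.841). Both contrasts compare separate libraries but use one estimate of the spread. The labels do not say whether cDC1 and cDC2 libraries came from the same animals, so the contrasts may not be independent.

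Other members with large differences had no common direction. In cDC1 Parp14 (0.54, limma adjusted p = 0.946), Ifi44 (0.37) and Ifnar2 (0.34) were higher in KO and Cmpk2 lower (-0.29), and none passed. Eif2ak2, Irf9 and Stat2 were lower by the same amount as Cmpk2, which was named by alphabetical order. The difference of Cmpk2 rests on WT cDC1 replicate 1 and was 0 without it. That of Ifi44 was 0.16 without the same library, 0.21 without KO cDC1 replicate 2, and 0 with a distance limit of 10 kb. In cDC2 Gbp7, with 3 and 3 summits in WT and 3 and 1 in KO, differed by -0.50, while Cmpk2 (0.50), Eif2ak2 (0.50) and Rsad2 (0.37) were higher in KO, and none passed. The differences of Gbp7, Cmpk2 and Eif2ak2 in cDC2 each rest on 1 KO library, replicate 2, and were 0 without it. Among the tested genes of the pathway lists, 0 passed in either subset.

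Mx1 is named for a GTPase that blocks influenza virus, and Mx2 for its relative, but both are listed as transcribed pseudogenes on this build. Their spans held 2 to 4 and 1 to 3 summits per library, counted without the nearest-gene rule. The promoter table holds no start for them, so summits near the ends of the gene spans were used. At the upper end of Mx1 (chromosome 16, 97462906) the summit ranked in cDC1 at 20.3% and 19.8% in the WT libraries and 20.5% and 20.6% in the KO libraries. In cDC2 it ranked at 30.6% and 23.7% in WT and at 10.6% and 4.17% in KO. The cDC1 libraries lay close together, and both KO cDC2 libraries ranked above all others. No test of these ranks was made. The KO mice carry a Cre transgene with the Mx1 promoter, and signal from the transgene and from the gene itself cannot be told apart in these lists.

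**Figure D5:**
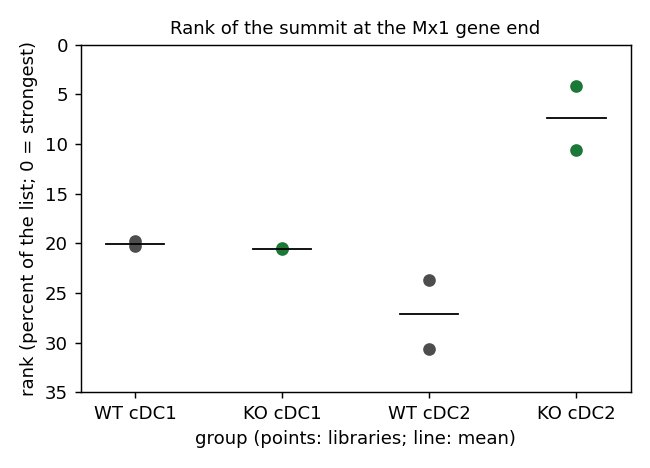
Rank of the summit at the upper end of Mx1, as a percent of the 61737 kept summits, in each library (points) with the mean of each group (lines), and the axis reversed so that strong summits are at the top. WT and KO cDC1 lie between 19.8% and 20.6%, and KO cDC2 at 10.6% and 4.17% lies above WT cDC2 at 30.6% and 23.7%.

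At the lower end of Mx2 a summit was found in 7 libraries, ranking between 21.5% and 45.2%, and in WT cDC2 replicate 1 there was none. Of the other members without a listed start, Usp18, Zbp1 and Parp14 had a summit at 1 end of the gene in all 8 libraries. So did Dhx58, which ranked in cDC1 at 33.3% and 45.8% in the WT libraries and 42% and 29.2% in the KO libraries. In cDC2 it ranked at 76.5% and 76.4% in the WT libraries and 50.2% and 70.3% in the KO libraries. All cDC1 libraries of Dhx58 ranked above all cDC2 libraries, while its count was 2 in each.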

How the data were processed

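Per the submitters' processing notes, reads were handled by the authors with Bowtie2 and SAMtools, peaks with MACS2 and reports with MultiQC, on mouse build GRCm38 (mm10). Tool versions and the settings for peaks and filters are not given in the sources used here. Per the labels, each of the 8 libraries is ATAC-seq of sorted spleen cells, and the authors deposited 1 list of summits per library. The deposited score of a summit is a −log10 value, read here as one of q values, since the lowest scores of the libraries ranged from 1.302 to 1.36. It rises with depth, so it was used only to rank summits within a library. The authors' score is given without a sampling error, and the read depth is unknown.

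Lists were cut to 61737 summits, the shortest length, and summits were given to the nearest gene span of the GRCm38.p6 annotation within 50 kb. Summits per gene were fitted as log2(summits + 1) with limma 3.58.1 in R 4.3.3, for 14068 genes with a mean of at least 1, with a mean for each of 4 groups. To each residual variance was added 0.0833 squared summits, the variance that rounding to whole numbers gives. The threshold was a Benjamini-Hochberg adjusted p of 0.05 over all genes. The fit was tested on simulated data. The members, the lists and the variance treatment were chosen with earlier results of these data known. Members were named when called, when among the 3 largest differences in each direction, when at 0, or when among the 5 with most summits. Promoter windows are from RefSeq, and 34 of 41 members matched. Sites could not be searched for motifs, because no genome sequence was used here. Some genes of the lists are not reported here by name. No pairing by library number was seen in the counts, with correlations of deviations between 0.002 and 0.036. With counts this small, these values cannot show whether libraries share an animal or a batch. Alternatives were the list length, the distance limit, the pseudocount, the filter, the variance, a replicate block, fewer groups and each library left out.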

Additional observations from a re-analysis of the deposited data

Results flagged for a closer look

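In 4 cases both KO libraries moved one way from both WT libraries in cDC1 and the other way in cDC2. In cDC1 Parp14 had 3 and 4 summits in the WT libraries and 5 and 6 in the KO libraries, a change in the mean of 2. In cDC2 it had 5 and 6 in the WT libraries and 4 in both KO libraries, a change of -1.5. The change in cDC1 minus that in cDC2 was 3.5 summits, and limma for this difference gave an unadjusted p of 0.0218 and an adjusted p of 1. In summit counts 1 of the 32 tested members, Parp14, had such an order, and 116 of the 14068 tested genes (0.825%) had it. No share over all genes was made for the ranks. Counts and ranks together, 87 member values were looked at. A rank could show such an order only with a summit in all 8 libraries, as at 26 of the 34 starts.

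For the ranks of summits the difference was not tested. The start summit of Ifit2 changed by -14.1 percentage points of the list in KO cDC1 and by 1.82 in KO cDC2, and the first minus the second was -16. The start summit of Ifih1 changed by 6.7 and -1.2, with 7.9 between them. The summit at the upper end of Mx1 changed by 0.5 in cDC1 and by -19.8 in cDC2, with 20.3 between them. Groups of 2 libraries are too small to look for single libraries that stand apart.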

How the results depend on the processing

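Of the 6 members called between the subsets, 3 remained with all deposited summits (Eif2ak2, Oas1a and Trim30a). In that setting 9.8% of all tested genes passed, against 10.4% in the main fit. With all deposited summits scaled to equal list length, an alternative chosen after seeing the data, 2 remained (Gbp2 and Oas1a). Without the rounding variance 2 remained (Oas1a and Trim30a), where 9.02% of all tested genes passed. In the WT libraries alone 2 remained (Eif2ak2 and Oas1a) and in the KO libraries alone 1 (Trim30a). Leaving out each library in turn gave 3 to 6 called members, with 3 without WT cDC1 replicate 1 or without KO cDC2 replicate 2. Where no share of all genes is given, these counts cannot show whether members lost calls more than other genes. Of 313 values of named members under alternatives, 111 belonged to the 6 called members, of which 41 lost the call. The other 202 belonged to genotype differences, which did not pass, of which 0 gained a call, 14 were exactly 0 and 0 had the opposite sign.

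With a replicate block 6 members were called, and the count over all genes was 1849 instead of 1457. The block changed no call of a member. Whether libraries with the same number share an animal or a batch is not known.

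Member sites in all 8 libraries numbered 38 among the better-scored 50% of the lists, and 68 to 72 with 1 library left out. Sites of every cDC1 and no cDC2 library numbered 5 with all deposited summits, 5 among the better-scored 50%, and 3 to 5 with 1 library left out. Sites of every cDC2 and no cDC1 library numbered 3 with a chaining distance of 100 bp, 0 among the better-scored 50%, and 6 to 9 with 1 library left out. Sites of every KO and no WT library, and the reverse, numbered 0 to 1 with 1 library left out. Members with a start summit in all libraries numbered 26 with each library left out. These counts are given without the share over all sites or genes in the same setting. They cannot show whether the members changed more than other sites or genes.

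Each group has 2 libraries. A count of called peaks depends on read depth, which is unknown, and does not measure reads.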
